A study of Gallus gallus with 20 samples.

Results

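Liver and breast muscle of the same kind of bird were compared on the control diet, using the 5 control-diet liver libraries and the 5 control-diet libraries of pectoralis major, the breast muscle. These are 10 of the 20 libraries of the series, and they were chosen by tissue and diet alone. The birds were male Ross 708 broilers, a fast-growing meat chicken, sampled on day 35 after hatch. All 10 libraries came from birds given a diet with L-methionine between weeks 3 and 5 of age. The other 10 libraries came from birds on a diet deficient in L-methionine. RNA was extracted from whole pieces of tissue, so fewer cells of a type and less RNA per cell cannot be told apart. The labels do not say whether liver and breast libraries of the same number came from 1 bird, and p-values measure the spread between these libraries.

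The liver makes most proteins of blood plasma, and it stores, makes and releases glucose and lipid for other tissues. In birds it is also the main site of fatty acid synthesis, and it turns surplus nitrogen into urate by way of purines. Pectoralis major of a broiler is a flight muscle built almost entirely of fast fibres, which contract by sliding actin and myosin filaments and draw energy mostly from glycogen and glucose. Many enzymes needed by both tissues are encoded by separate genes, a liver form and a muscle form.

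The deposited values are FPKM, fragments per unit of transcript length and of library size, which compare genes per unit of length. They were scaled so that the median gene had the same level in each library, and all levels below are scaled FPKM unless stated otherwise. Values over 5 libraries are listed in the order of library 1 to 5. Differences are on the log2(scaled FPKM + 1) scale, liver minus breast muscle, with the standard error (SE). That scale understates the difference of genes near or below 1. A gene was called when limma's treat test placed its difference beyond 2-fold with p under 0.05 after Benjamini-Hochberg adjustment across the 10848 genes that were tested.

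Assigned sequence, estimated from coverage and transcript length, was between 1.50 and 2.75 gigabases per library, and the number of reads is unknown. Genes reaching an unscaled FPKM of 1 numbered 10322 ± 180 in breast muscle and 9970 ± 116 in liver (SD, n = 5 each, exact permutation p = 0.0159, two-sided, adjusted p = 0.0476 over 3 library values). At an unscaled FPKM of at least 5 the difference, liver minus breast muscle, was -298 genes with an exact permutation p of 0.0952, two-sided. Without scaling the median log2 difference over all genes was -0.16, so unscaled breast values ran higher. The part of this offset in the gene counts was not tested. Liver control 4 held 63.1% of its summed FPKM in mitochondrially encoded features, and 54.6% of its summed FPKM was in 1 very short unnamed mitochondrial RNA that was listed at 0 in the other liver libraries. Leaving out features under 200 nt, the mitochondrial share was 11.9% ± 1.30 in liver and 11.8% ± 0.770 in breast muscle (SD, n = 5 each).

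Liver control 1 held muscle transcripts. Over 8 myocyte markers with a mean of at least 100 in breast muscle, its median level was 0.681% of the breast mean, with a range from 0.493% to 0.810%. The medians of liver control 2 to 5 lay between 0.00156% and 0.00495%. Of these markers DES, an intermediate filament gene also expressed outside muscle, was at 0.510% to 0.654% of the breast mean in those 4 libraries. ACTA1, skeletal muscle actin, read 303 in liver control 1 against 2.35, 1.26, 0.874 and 0.349 in the other liver libraries. The 12 tested myocyte markers summed to 591 in liver control 1, to between 17.2 and 21.2 in the other liver libraries and to a median of 78255 in breast muscle. Leaving out liver control 1 kept 1252 of the genes called higher in liver and 1166 of those called higher in breast muscle. It ended 49 and 40 calls and added 32 and 22. For ACTA1 the log2 difference was -12.65 with this library and -14.09 without it.

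**Figure D1:**
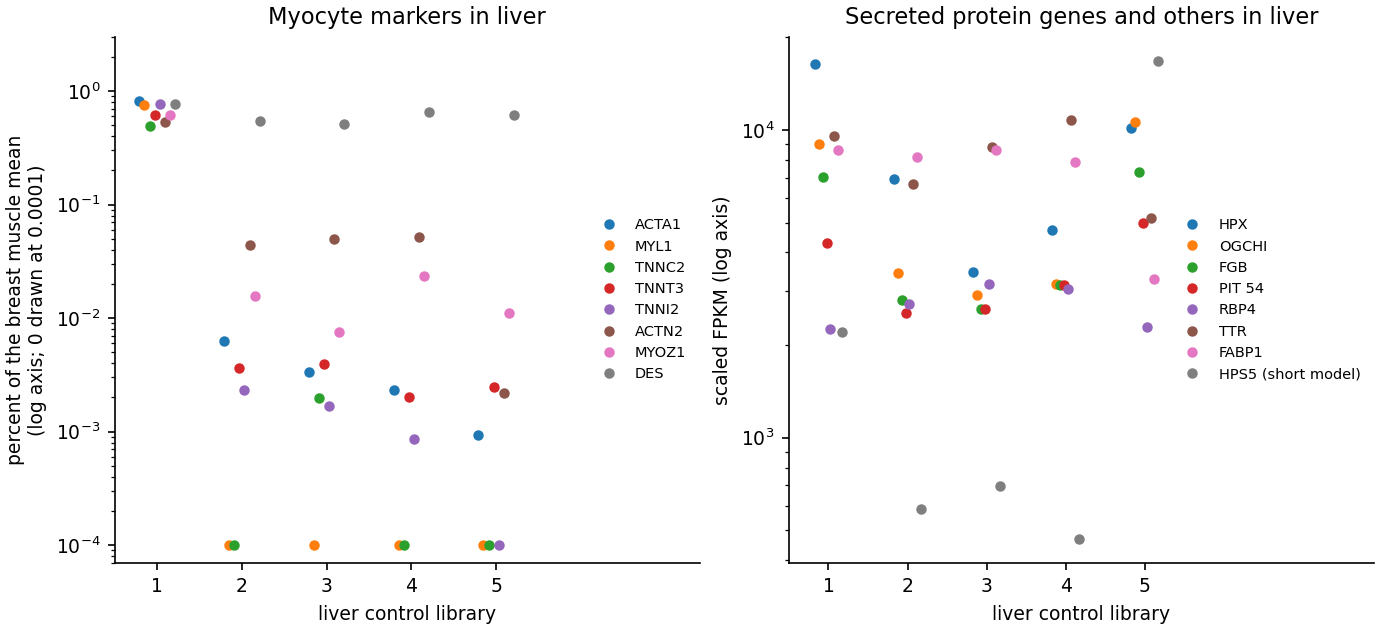
Left, 8 myocyte markers in each liver control library as a percent of their mean in breast muscle (log axis, values of 0 drawn at the foot), and right, scaled FPKM of 8 genes in the same libraries (log axis). All 8 markers lie between 0.493% and 0.810% in library 1, and HPX, OGCHI and FGB are highest in libraries 1 and 5.

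Of 10848 genes tested, 1301 were higher in liver, which is 12% of all genes tested, and 1206 were higher in breast muscle, 11.1%. Both shares are the background for every count of called list members below, also where a paragraph does not repeat them. The median log2 difference over all genes was 0.02, a value largely fixed by the scaling, and -0.16 without scaling. Among the called genes, 887 exceeded a log2 difference of 2 in favour of liver and 715 in favour of breast muscle. A log2 difference of at least 6 was found for 124 genes in favour of liver and 57 in favour of breast muscle. Libraries of the tissues did not overlap for 6307 genes, 58.1% of those tested, and for 2502 of the 2507 called genes. On the deficient diet 1095 of the liver calls and 1000 of the breast calls were made again, 84.2% and 82.9% of the control-diet calls, and 0 genes were called in opposite directions.

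**Figure D2:**
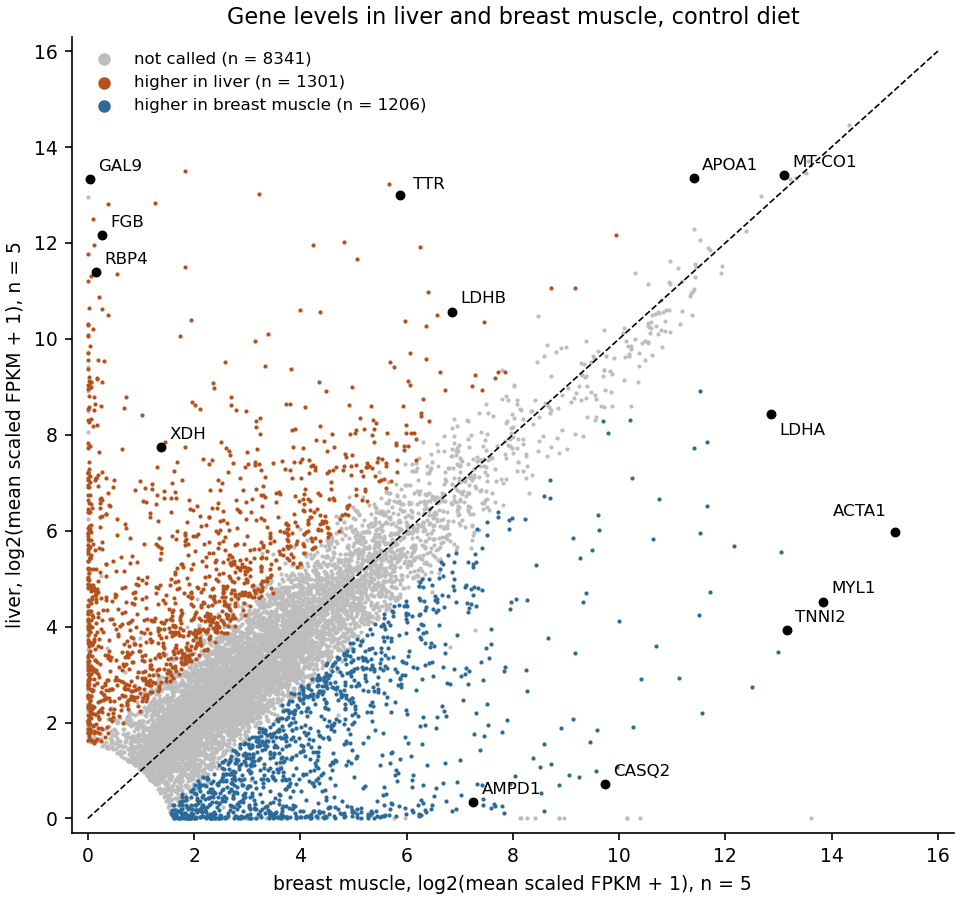
Mean level of each of the 10848 genes tested in breast muscle (horizontal axis) and liver (vertical axis), as log2(mean scaled FPKM + 1) over 5 libraries each, with equal levels on the dashed line. The 1301 genes called higher in liver and the 1206 called higher in breast muscle form wide bands on either side, and named genes are marked in black.

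Among called genes with a symbol and no overlap between the tissues, the largest difference in favour of liver was that of GAL9. This gene, which encodes a gallinacin, a defensin peptide of birds (galGal4 chromosome 3, positions 107060377 to 107063435), had levels of 3740, 15807, 10160, 10734 and 11143 in liver. In breast muscle it was listed at 0 in 4 libraries and at 0.141 in library 3. Its log2 difference was 13.15 with an SE of 0.31 (limma, adjusted p = 3.67e-11). Liver control 1 had the lowest GAL9 level of the liver libraries. ALB, which encodes serum albumin, failed to be estimated in all liver libraries and was left out.

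Of 20 tested genes for plasma transport proteins, 19 were higher in liver and 0 in breast muscle, with a median log2 difference of 8.97 against 0.02 for all genes. RBP4 encodes the carrier of retinol (chromosome 6). It had levels of 2252, 2722, 3171, 3048 and 2283 in liver and between 0 and 0.194 in breast muscle. The groups were far apart, with a log2 difference of 11.23 and an SE of 0.12 (limma, adjusted p = 1.98e-13). TTR, the transthyretin gene of a thyroid hormone carrier, had levels of 9546, 6697, 8824, 10793 and 5189 in liver. Its breast values of 46.5, 81.1, 32.7, 74.1 and 55.6 were above those of RBP4, and its log2 difference was 7.14. AHSG, which encodes fetuin A, differed by 10.76. EX-FABP, an extracellular lipocalin of chickens, was the member not called, at a log2 difference of -0.41.

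Some plasma protein genes varied several-fold among the liver libraries. HPX, the haem-binding haemopexin, had levels of 16426, 6950, 3467, 4731 and 10165 in liver. OGCHI, an acid glycoprotein gene for which RefSeq uses ORM1, had 9024, 3423, 2905, 3150 and 10638. FGB, the fibrinogen beta chain, had 7029, 2793, 2621, 3147 and 7294. PIT 54, the haemoglobin-binding plasma protein of birds, had 4282, 2537, 2620, 3136 and 4994. Libraries 1 and 5 were the highest for all 4 genes, while RBP4 was lowest in the same libraries. In breast muscle OGCHI stayed at or below 0.212 and FGB at or below 0.419, and HPX lay between 2.77 and 15.3, so that the tissues did not overlap for any of the 4.

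Clotting and complement genes followed the plasma carriers in size. Of 21 tested members of coagulation and fibrinolysis, 20 were higher in liver and 0 in breast muscle, with a median log2 difference of 6.71. The genes of the fibrinogen chains led, with 11.74 for FGB and 11.10 for FGG, and FGA was listed at 0 in all breast libraries with a liver mean of 2365. Prothrombin, F2, differed by 8.67 and plasminogen, PLG, by 8.93. F8, coagulation factor VIII, was the member not called, at 0.74. Of 21 tested complement genes 20 were higher in liver, with a median of 5.16. MBL2, the mannose-binding lectin that starts the lectin pathway, had liver levels of 794, 663, 541, 782 and 981 and breast levels between 0.0508 and 0.220. C1QA was not called at 1.12, and C1QB, called at 1.32 with an adjusted p of 0.0363, lost its call when any of 9 libraries, liver control 1 among them, was left out.

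Lipoprotein genes were less uniform. Of 19 tested, 11 were higher in liver and 2 in breast muscle, with a median of 1.95. These are 57.9% and 10.5%, against 12% and 11.1% of all genes tested. APOB, the large structural protein of very low density lipoprotein, had 99.4 ± 12.8 in liver and was listed at 0 in 4 breast libraries (SD, n = 5). APOA1, the main protein of high density lipoprotein, is known in chickens to be made by muscle also. It had levels of 11665, 12411, 11720, 8524 and 8043 in liver and 1905, 3234, 2752, 2592 and 3034 in breast muscle. Its groups did not overlap, but its log2 difference of 1.95 (SE 0.17, limma, adjusted p = 0.000604) was the smallest among the tested hepatocyte markers. PLTP, the phospholipid transfer protein, at -3.28 and VLDLR, the very low density lipoprotein receptor, at -2.11 were the members higher in breast muscle.

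Fatty acid synthesis genes were mostly higher in liver, 15 of 21 tested and 0 in breast muscle, with a median of 3.44. ELOVL6, which lengthens palmitate to stearate, had levels of 524, 551, 384, 290 and 209 in liver and 3.52, 3.53, 3.84, 2.53 and 1.75 in breast muscle. ACL, ATP citrate lyase, which supplies acetyl-CoA in the cytosol, had 166 ± 34.4 and 7.12 ± 0.487 (SD, n = 5), a log2 difference of 4.34. FASN, fatty acid synthase, differed by 3.44. ME1, the cytosolic malic enzyme that supplies NADPH, was not called at 0.02, nor was SREBP-1, a transcription factor of lipogenesis, at 0.14. In cholesterol synthesis 7 of 17 tested genes were higher in liver and 0 in breast muscle, with a median of 1.41. Liver control 1 had the highest list median of the liver libraries, and without it the count was 6 and the median 1.19. HMGCS1, the cytosolic HMG-CoA synthase, had 994 ± 145 in liver and 7.86 ± 0.981 in breast muscle, while FDPS and FDFT1 of later steps were not called at -0.42 and -0.29. Bile acid synthesis and transport had 13 of 15 tested genes higher in liver and 0 in breast muscle, median 3.30.

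Genes that make glucose separated the tissues by member. Of 15 tested gluconeogenesis genes 8 were higher in liver and 1 in breast muscle, with a median of 2.97. That is 53.3% and 6.67%, against 12% and 11.1% of all genes tested. PCK1, the cytosolic phosphoenolpyruvate carboxykinase that commits carbon to glucose, had liver levels of 80.7, 1364, 381, 368 and 544 and breast levels of at most 0.0772. It thus varied widely among liver libraries, with the lowest value in liver control 1. G6PC3, a glucose-6-phosphatase found in many tissues, was the member higher in breast muscle, at -2.84. GYS2, the liver glycogen synthase, had 60.5 ± 9.95 in liver and at most 0.0246 in breast muscle.

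Fatty acid oxidation and ketone synthesis had 21 of 31 tested genes higher in liver and 1 in breast muscle, with a median of 2.17. EHHADH, the bifunctional enzyme of peroxisomal beta-oxidation, had levels of 104, 236, 149, 132 and 126 in liver and 1.91, 2.09, 1.86, 2.07 and 2.37 in breast muscle, a log2 difference of 5.57. CPT1A, which admits long-chain fatty acids to mitochondria, had its lowest liver level in liver control 1, as did EHHADH, and differed by 3.33. BDH1, which interconverts the ketone bodies, was the member higher in breast muscle at -2.11, and OXCT1, which starts ketone use, was not called at -1.28. Of 40 tested peroxisome genes 21 were higher in liver and 1, GNPAT of ether lipid synthesis, in breast muscle, with a median of 1.43.

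Of 24 tested genes of purine synthesis and urate formation, 10 were higher in liver, 6 were higher in breast muscle and 8 were not called, against 12% and 11.1% of all genes tested for the called directions. The median was 0.54. Among the members higher in liver were PRPS2 at 6.57, PURH at 5.63, PPAT at 5.08 and GART at 4.46. PURH, which RefSeq lists under ATIC, closes the purine ring in its last steps, and its levels were 2846, 5434, 3634, 5209 and 2312 in liver against 62.6, 89.2, 57.9, 94.3 and 70.8 in breast muscle. XDH, which forms urate, had levels of 193, 208, 138, 300 and 223 in liver and 1.22, 1.67, 0.636, 1.78 and 2.76 in breast muscle (log2 difference 6.36, SE 0.24, limma, adjusted p = 3.19e-09). The members higher in breast muscle were AMPD1, AMP deaminase of the muscle purine nucleotide cycle, at -6.89, AMPD3 at -3.48, ADSSL1 at -2.95, PRPS1 at -2.80, AOX1 at -2.09 and HPRT1 at -1.77. PRPS1 and PRPS2 catalyse the same step and were called in opposite directions.

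Amino acid breakdown had 27 of 41 tested genes higher in liver and 1 in breast muscle, with a median of 3.50. TAT, tyrosine aminotransferase, had 1088 ± 300 in liver and was listed at 0 in 4 breast libraries (SD, n = 5). PRODH, proline dehydrogenase, was the member higher in breast muscle, at -1.98. PSPH, phosphoserine phosphatase of serine synthesis, had liver levels of 8853, 13309, 6141, 10484 and 8958. It was among the 10 most abundant genes of liver that had a symbol and an estimate. In breast muscle it had between 39.2 and 58.3. In the methionine cycle and transsulfuration 18 of 29 tested genes were higher in liver and 1 in breast muscle, with a median of 1.84. MAT1A, the liver form of methionine adenosyltransferase, had 693 ± 137 and 9.03 ± 1.37 (SD, n = 5). CDO1, which oxidises cysteine, differed by 5.60, and GADL1, a decarboxylase, was the member higher in breast muscle, at -3.74.

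Drug and steroid metabolism had 22 of 28 tested genes higher in liver and 1 in breast muscle, with a median of 2.57, led by CYP2H1 at 8.73. Among liver-enriched transcription factors 15 of 21 were higher in liver and 0 in breast muscle, with a median of 1.96. CREB3L3, a membrane-bound factor of the endoplasmic reticulum, had 106 ± 26.5 in liver and 0.0267 ± 0.0402 in breast muscle (SD, n = 5). HNF4A, a nuclear receptor central to hepatocyte identity, was low, with levels of 4.96, 1.25, 2.57, 1.38 and 2.31 in liver, and it was listed at 0 in all breast libraries. It fell below the minimum mean for testing without liver control 1. Of 19 tested endocrine and growth factor genes of liver, 14 were higher in liver and 0 in breast muscle, median 3.17. AGT, the precursor of angiotensin, differed by 8.24, IGFBP1 by 6.50 and IGF-I by 3.17. FST, follistatin, called with an adjusted p of 0.0402 (limma) at 2.29, did not pass once any of 6 libraries was dropped.

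Of 55 tested genes of the secretory pathway and endoplasmic reticulum folding, 6 were higher in liver and 0 in breast muscle, which is 10.9% against 12% of all genes tested, with a median of 0.63. The called members were ERO1LB at 2.42, LMAN1 at 2.27, P4HB at 2.14, MCFD2 at 1.88, PDIA4 at 1.67 and SEC11C at 1.34. LMAN1 and MCFD2 encode the receptor that carries clotting factors out of the endoplasmic reticulum. HSPA5, the main chaperone of that compartment, was not called at 0.94. Without liver control 1 the count was 4.

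**Figure D3:**
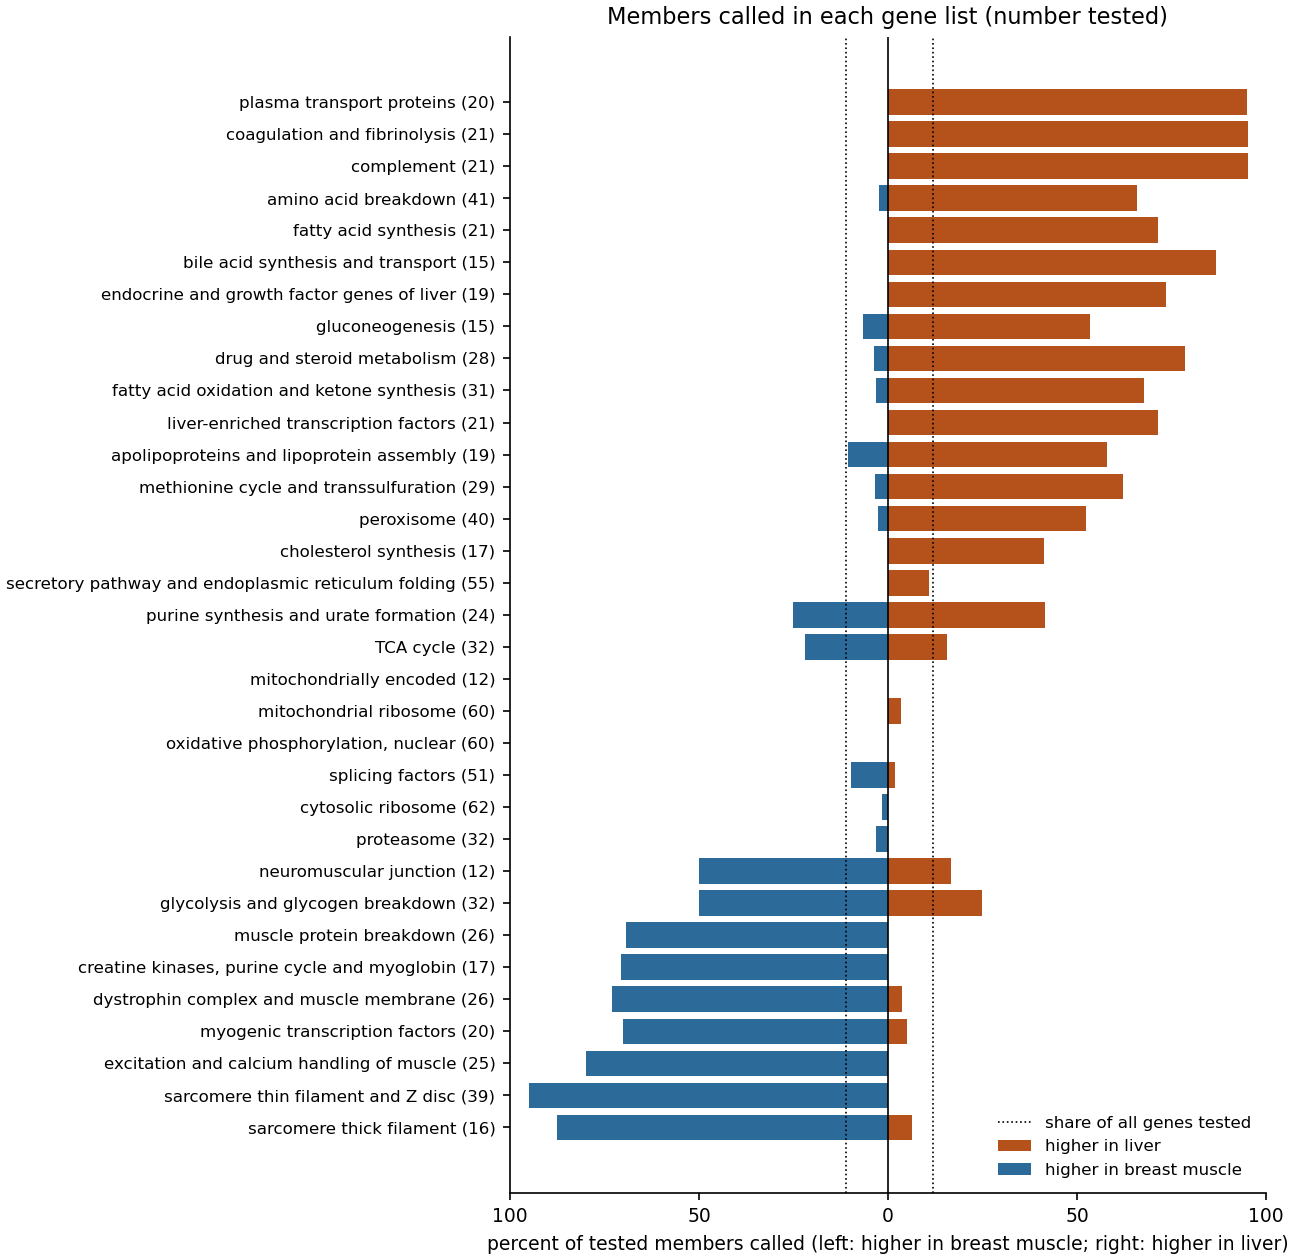
Percent of the tested members of each of 33 gene lists called higher in liver (right, orange) or higher in breast muscle (left, blue), ordered by the median log2 difference of the list, with the number of members tested in brackets. Against the dotted lines at the share of all genes tested, 12% and 11.1%, lists of plasma protein genes reach 95% on the liver side and thin filament genes 94.9% on the breast side, and the respiratory chain lists have no bar.

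The 5 largest differences in favour of breast muscle, among called genes with a symbol and no overlap, were those of ACTA1, MYL1, TNNI2, TNNT3 and TNNC2. All 5 are sarcomere genes. ACTA1 (galGal4 chromosome 3) had levels of 37605, 23443, 45650, 34977 and 45150 in breast muscle. Muscle actin genes are near-identical in their coding sequence, so reads may be split among them. MYL1, the fast essential light chain of myosin, had levels of 14577, 10764, 16707, 12739 and 18413 there. It read 110 in liver control 1 and was listed at 0 in the other 4 liver libraries. The troponin genes TNNI2, TNNT3 and TNNC2, which form the calcium switch of fast fibres, had breast means of 9121 ± 2132, 8165 ± 1740 and 5780 ± 898 (SD, n = 5). Their log2 differences were -11.77, -11.58 and -11.47 (limma, adjusted p = 4.01e-06, 1.69e-06 and 7.35e-07), and these widened to -12.98, -12.66 and -12.45 without liver control 1. In liver control 2 to 5 the highest value among TNNI2, TNNT3 and TNNC2 was 0.323.

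Of 39 tested genes of the thin filament and Z disc, 37 were higher in breast muscle and 0 in liver, with a median of -4.98. TPM3 and CAPZA2 were the members not called, at -1.05 and -1.26. TNNC1, the troponin C of slow and cardiac fibres, was abundant in this fast muscle, with levels of 7269, 2969, 4255, 4920 and 3462. Its liver levels were 90.3, 48.1, 55.2, 39.9 and 19.8, present in all 5 libraries, unlike TNNC2. Of 16 tested thick filament genes 14 were higher in breast muscle and 1 in liver, with a median of -5.09. MYH1, a fast myosin heavy chain, had 171, 196, 216, 179 and 376 in breast muscle, and it belongs to a family of near-identical genes whose reads can be shared. MYL4, known in mammals as an atrial and embryonic light chain, was the member higher in liver, with levels of 37.3, 23.7, 45.2, 59.2 and 29.1 against 0.436 to 0.930 in breast muscle. Its log2 difference was 4.47 with an SE of 0.21 (limma, adjusted p = 6.15e-08), and the log2 difference was 4.48 without liver control 1.

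Genes that couple excitation to contraction had 20 of 25 tested members higher in breast muscle and 0 in liver, with a median of -3.56. CASQ2, which stores calcium in the sarcoplasmic reticulum, had levels of 918, 726, 864, 788 and 966 in breast muscle. In liver it had 3.13 in library 1 and at most 0.0751 in the others. CAV3, the caveolin of muscle, had 191 ± 22.5 in breast muscle (SD, n = 5) and differed by -7.41. ATP2A2, a calcium pump shared with other tissues, was not called at -0.31. In the dystrophin complex and muscle membrane 19 of 26 tested genes were higher in breast muscle and 1, SNTB1, in liver, with a median of -2.73, and DMD itself was not called at -1.03. At the neuromuscular junction 6 of 12 tested were higher in breast muscle and 2 in liver, with a median of -1.50. These are 50% and 16.7%, against 11.1% and 12% of all genes tested. CHRND, an acetylcholine receptor subunit, had 23.4, 44.5, 28.7, 38.4 and 28.3 in breast muscle and at most 0.0942 in liver. LRP4 and SNTB1, which other tissues use as well, were the members higher in liver.

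Energy buffering genes of muscle had 12 of 17 tested members higher in breast muscle and 0 in liver, with a median of -2.51. AK1, adenylate kinase of the cytosol, had levels of 2593, 1390, 2510, 1819 and 2916 in breast muscle and 18.2, 4.62, 3.40, 4.49 and 2.09 in liver. CKMT2, the mitochondrial creatine kinase of muscle, had 220, 80.2, 212, 142 and 206 in breast muscle, and in liver it was seen in library 1 alone, at 1.62. MB, myoglobin, which stores oxygen, differed by -4.18. Breast control 2 had the lowest breast level of AK1, CKMT2, LDHA, PKM and ACTA1. The symbol EEF1A, an elongation factor of translation, is carried by separate genes on chromosomes 20 and 3. The chromosome 20 gene had 2753, 2249, 3428, 3198 and 3451 in breast muscle and at most 0.293 in liver control 2 to 5. The chromosome 3 gene, with means of 5015 in liver and 2718 in breast muscle, was not called.

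Of 20 tested myogenic transcription factors and related genes 14 were higher in breast muscle and 1, FST, in liver, with a median of -2.84. MYOD1, a master regulator of the muscle lineage, had 45.6, 52.0, 49.9, 43.5 and 45.3 in breast muscle and at most 0.109 in liver (log2 difference -5.53, SE 0.07, limma, adjusted p = 9.47e-13). GDF8, myostatin, a brake on muscle growth, had 43.7, 24.9, 19.8, 31.5 and 42.2 in breast muscle and at most 0.171 in liver. Of 26 tested genes of muscle protein breakdown 18 were higher in breast muscle and 0 in liver, with a median of -2.51. TRIM63, a ubiquitin ligase of the sarcomere, had 123 ± 30.9 in breast muscle and 0.696 ± 0.206 in liver, while FBXO32, known with TRIM63 as a marker of atrophy, was not called at -1.55.

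**Figure D4:**
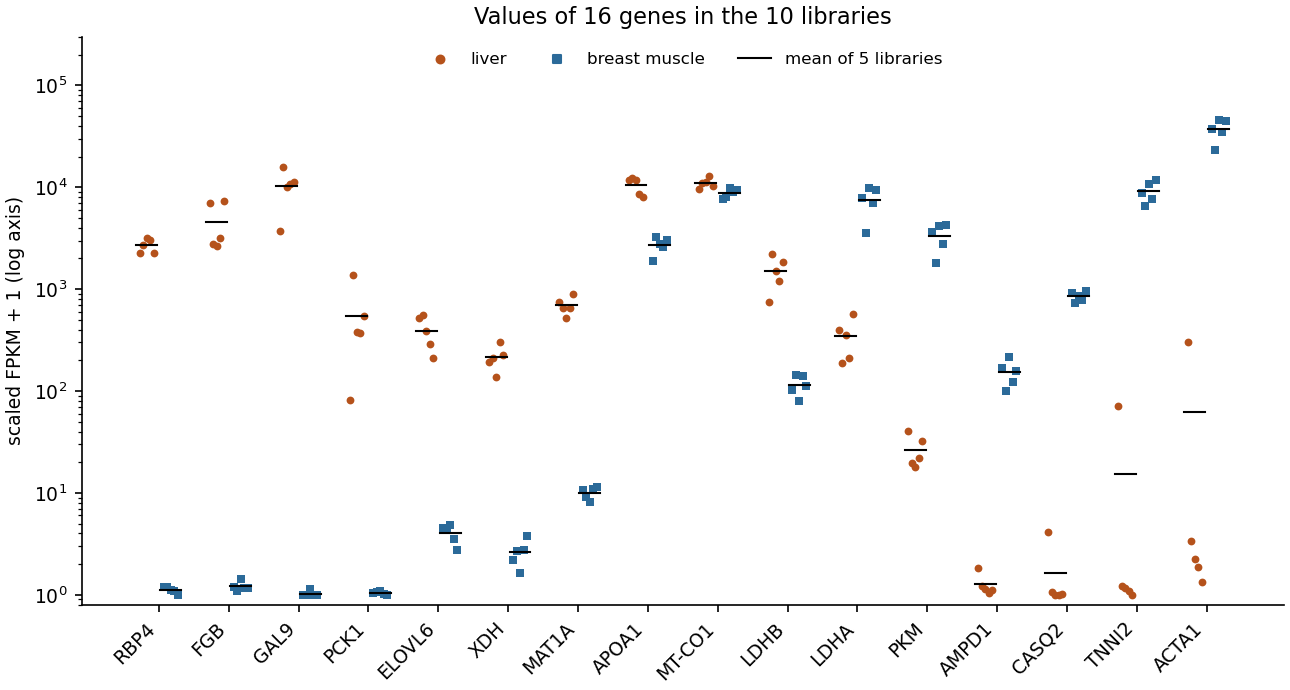
Scaled FPKM + 1 of 16 genes in the 5 liver libraries (circles) and the 5 breast muscle libraries (squares), on a log axis, with the mean of 5 libraries as a bar. The tissues do not overlap for any gene but MT-CO1, and liver control 1, the leftmost circle, stands above the other liver libraries for TNNI2 and ACTA1.

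Glycolysis and glycogen breakdown divided between the tissues. Of 32 tested genes 16 were higher in breast muscle and 8 in liver, with a median of -1.74. That is 50% and 25%, against 11.1% and 12% of all genes tested. Members higher in breast muscle covered most steps from glucose to lactate: HK1 at -3.49, GPI at -3.25, PFKM at -6.99, TPI1 at -3.65, PGK1 at -4.03, PGAM1 at -3.72, PKM at -6.98 and LDHA at -4.48. PKM, pyruvate kinase, had levels of 3669, 1818, 4196, 2775 and 4282 in breast muscle and 39.6, 18.7, 16.9, 20.8 and 31.6 in liver. ENO1, enolase 1, went the other way at 1.89. GAPDH failed to be estimated in breast control 1 and 5 and was not tested.

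Forms of the same enzyme were compared as the share of the muscle candidate in the sum of the pair. Of 36 pairs written, 20 had both genes tested. In 9 both members were called on the side they were placed, in 3 the liver form alone and in 6 the muscle form alone, and in 2 neither. For fructose 1,6-bisphosphatase FBP2 made up 0.164% ± 0.115 of the pair in liver and 96.3% ± 1.81 in breast muscle (SD, n = 5). FBP1 had 419, 398, 416, 321 and 279 in liver and FBP2 had 207, 92.3, 204, 160 and 186 in breast muscle. For fatty acid binding proteins the share of FABP3 was 0.0771% ± 0.138 and 99.4% ± 0.205.

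The separation was less sharp for other pairs. LDHA made up 19.9% ± 9.97 of the lactate dehydrogenase pair in liver, from 7.71% to 34.3%, and 98.2% ± 1.22 in breast muscle (SD, n = 5). PGM1 made up 57.4% ± 12.6 of its sum with PGM2 in liver and 99.6% ± 0.213 in breast muscle. Whether PGM2 serves as a liver form of the enzyme was not tested. For the adenine nucleotide translocase, which moves ATP out of mitochondria, SLC25A4 made up 10.9% ± 2.03 and 82.8% ± 6.78. PDK4 was the larger member of its pair in both tissues, with 95.0% ± 2.25 in liver and 85.6% ± 5.69 in breast muscle, and neither PDK4 nor PDK1 was called. PRKAG1 and CKMT1A, placed as liver forms, were called higher in breast muscle. Liver control 1 had the highest share in liver of PFKM at 18.1% and of AK1 at 31.3%, and without it the liver shares were 9.67% and 8.19%. The same held, among other pairs, for FBP2 at 0.359%, AMPD1 at 14.8% and SLC16A3 at 2.05%. Their mean liver shares were 0.115%, 2.81% and 0.761% without that library. SLC25A4, PGM1 and FABP3 did not have their highest liver share there.

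**Figure D5:**
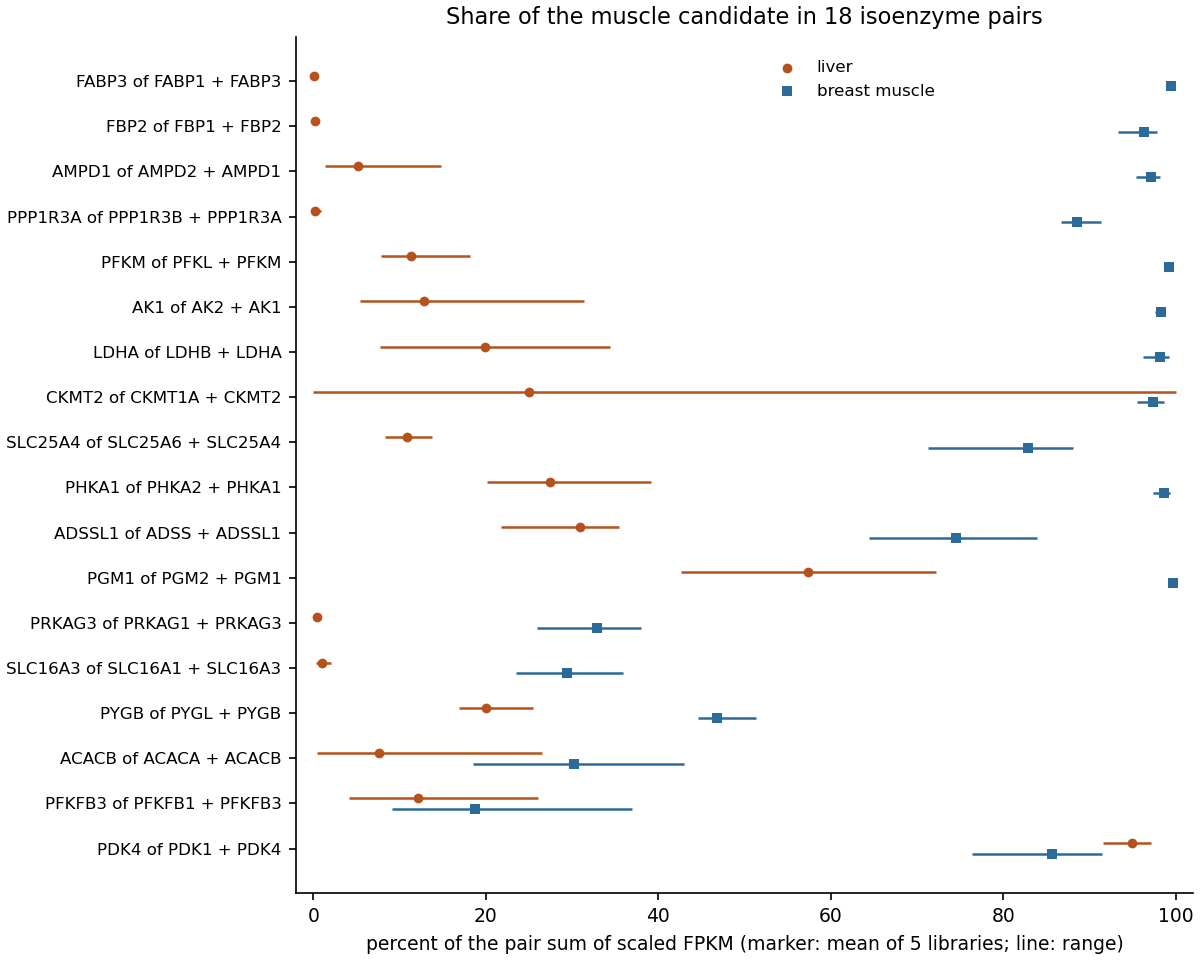
Share of the muscle candidate in the summed scaled FPKM of 18 isoenzyme pairs, in percent, with the mean of 5 libraries as a marker and the range from lowest to highest library as a line, for liver (circles) and breast muscle (squares). The liver line of CKMT2 spans the axis, with both members at or near 0 there. Its liver marker, at 25%, leaves out a library with both members at 0, which has no share. The CKMT2 share was 100% in liver control 1, and the liver mean was 0% without it. Mean shares of FBP2 and FABP3 are at most 0.164% in liver and at least 96.3% in breast muscle, while PDK4 is the larger member in both tissues.

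Of 60 tested nuclear genes of oxidative phosphorylation 0 were called in either direction by limma's treat test against a 2-fold difference. Of all genes tested 12% were called higher in liver and 11.1% in breast muscle. The list median was -0.06. A plain limma test against no difference passed 21 of the 60 genes, 35% against 70.1% of all genes tested. Of the 60 genes 16 did not overlap between the tissues, 26.7% against 58.1%. COX7A2 had the largest difference, with 128, 186, 166, 209 and 158 in liver and 63.6, 83.0, 58.5, 74.9 and 77.3 in breast muscle, which did not overlap but missed the 2-fold call at 1.23 (limma, adjusted p = 0.27). NDUFB4 at -1.12, COX6A1 at 1.03 and NDUFA12 at -0.97 also did not overlap, and COX7A2, NDUFB4 and NDUFA12 passed the 2-fold test on the deficient diet (limma, adjusted p = 0.0227, 0.0106 and 0.0119). Of 12 mitochondrially encoded genes 0 were called, with a median of 0.08 that became -0.14 on unscaled FPKM. MT-CO1, a subunit of cytochrome c oxidase, had 9602, 10924, 11160, 12853 and 10190 in liver and 7702, 8047, 9898, 9067 and 9444 in breast muscle. Its ranges overlapped. Of 60 genes of the mitochondrial ribosome 2 were higher in liver, MRPS6 and MRPL38, and 0 in breast muscle, with a median of -0.00. These are 3.33% and 0%, against 12% and 11.1% of all genes tested.

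The citric acid cycle list also held cytosolic enzymes and genes of pyruvate dehydrogenase, and 5 of its 32 tested members were higher in liver and 7 in breast muscle. These are 15.6% and 21.9%, against 12% and 11.1% of all genes tested. The median was 0.17 and became -0.16 under quantile normalization. CS, citrate synthase of the first step, had 70.7, 57.3, 90.6, 77.4 and 82.0 in breast muscle and between 9.36 and 15.4 in liver. The subunits IDH3A, IDH3B and IDH3G of the NAD-linked isocitrate dehydrogenase differed by -1.64, -1.53 and -1.66. The cytosolic enzymes IDH1 and ACO1 were higher in liver, at 3.68 and 3.78. So were PDHB, a pyruvate dehydrogenase subunit, and PDP2, a phosphatase of that complex, at 1.41 and 1.54. ME3, a malic enzyme outside the cycle, was higher in breast muscle at -3.09. Succinyl-CoA ligase showed both directions, with SUCLA2 of the ATP-forming enzyme at -2.00 and SUCLG2 of the GTP-forming enzyme at 2.52.

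Of 62 cytosolic ribosome genes 1, RPS28, was higher in breast muscle and 0 in liver, with a median of -0.42. These are 1.61% and 0%, against 11.1% and 12% of all genes tested. RPS28 had 263, 298, 373, 373 and 283 in liver and 987, 1012, 927, 1406 and 1592 in breast muscle. Of 32 proteasome genes 1, PSMA5, was higher in breast muscle and 0 in liver, with a median of -0.48. These are 3.1% and 0%, against the same shares of all genes tested. Among 51 splicing factors 5 were higher in breast muscle and 1 in liver, which is 9.80% and 1.96% against 11.1% and 12% of all genes tested, with a median of -0.16. RBM24, a splicing factor of striated muscle, had 70.7, 81.5, 73.9, 76.7 and 75.7 in breast muscle and 2.39, 3.79, 1.42, 2.80 and 3.57 in liver. ESRP2, a splicing factor of epithelial cells, had 17.9, 17.5, 16.5, 15.3 and 8.90 in liver and at most 0.0220 in breast muscle. RBM20, CELF2, RBFOX2 and MBNL1 were the other members higher in breast muscle.

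The share of a gene carried by each transcript was tested for 507 transcripts of 242 genes. In 16 genes a share differed by at least 0.2 at an adjusted p under 0.05 (limma), with 30 transcripts called, 5.92% of those tested. The shares of a gene sum to 1, so its transcripts were not independent tests. For 8 of the 16 genes the level of the whole gene was not called. CAPZB, an actin capping protein of the Z disc, had a transcript of 1455 nt with a share of 0.0403 ± 0.0130 in liver and 0.749 ± 0.0524 in breast muscle (SD, n = 5, limma, adjusted p = 5.65e-08).

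Liver control 1 stood apart in some transcript shares. In PKM a transcript of 2538 nt carried 0.415 of the gene in liver control 1 and between 0.977 and 1.00 in the other liver libraries, against 0.0381 ± 0.0107 in breast muscle (SD, n = 5). In TPM1, tropomyosin of the thin filament, the transcript of 975 nt had 0.515 in liver control 1, between 0.821 and 0.880 in the other liver libraries and 0.272 ± 0.00763 in breast muscle. In FASN the transcript of 10637 nt carried 0.912 ± 0.0438 in liver and 0.363 ± 0.0391 in breast muscle. APLP2, an amyloid precursor-like protein gene whose level was not called, had a transcript of 3641 nt with a share of 0.0316 ± 0.0109 in liver and 0.298 ± 0.0253 in breast muscle. Deposited shares are model estimates, and no exon was examined here.

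All 20 tested hepatocyte markers were higher in liver, with a median of 8.80, and all 12 tested myocyte markers were higher in breast muscle, with a median of -8.50. In the breast libraries the median of 17 hepatocyte markers was between 0.00986% and 0.0430% of the liver mean, and the highest value, 30.9%, belonged to APOA1. Of 14 macrophage and Kupffer cell markers 4 were higher in liver and 0 in breast muscle, with a median of 0.98. These are 28.6% and 0%, against 12% and 11.1% of all genes tested. MARCO, a scavenger receptor of resident macrophages, had 189, 154, 156, 175 and 184 in liver and 4.65, 1.53, 14.1, 4.75 and 14.5 in breast muscle. CSF1R and MPEG1, general macrophage genes, were not called, at -0.36 and 0.62. Of 8 markers of liver sinusoidal endothelium 5 were higher in liver, 62.5% against 12% of all genes tested, led by OIT3 at 5.13. The median was 2.29. Of 15 endothelial markers 5 were higher in liver and 2, EMCN and CD34, in breast muscle, median 0.72. These are 33.3% and 13.3%, against the same shares of all genes tested.

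Fibroblast and matrix markers were higher in breast muscle in 16 of 19 tested genes and in liver in 0, with a median of -2.97. COL1A2, a chain of type I collagen, had 532, 790, 587, 670 and 600 in breast muscle and 23.9, 25.9, 17.7, 21.4 and 21.0 in liver. Adipocyte markers went both ways, with 5 of 11 higher in breast muscle and 3 in liver, median -0.81. FABP4, a fatty acid carrier of fat cells, had 267, 496, 204, 342 and 612 in breast muscle and between 1.36 and 2.73 in liver. CIDEA, a lipid droplet protein, had 128, 204, 171, 212 and 232 in liver and between 2.66 and 8.93 in breast muscle. Satellite cell markers had 7 of 10 higher in breast muscle and 0 in liver. Stellate cell and pericyte markers had 5 and 3 of 11, and bile duct markers 1 and 5 of 9. The lists share genes, so their counts are not separate. The stellate cell list as written also holds DES of the myocyte, LUM and DCN of the fibroblast and ACTA2 of the smooth muscle list. CD34 is in both the endothelial and the satellite cell list. Breast shares were 84.2% for fibroblast, 45.5% for adipocyte and 70% for satellite cell markers, against 11.1% of all genes tested. For stellate cell and bile duct markers they were 45.5% and 11.1%. Liver shares were 0%, 27.3%, 0%, 27.3% and 55.6% in the same order, against 12%.

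Of 10 erythroid markers 1 was higher in liver, against 12% of all genes tested: HBAD, a globin gene with 71.8 ± 18.5 in liver and 21.4 ± 8.20 in breast muscle (SD, n = 5). That call, at an adjusted p of 0.0328 (limma), rested on each of 6 libraries. The globin genes HBAA and HBB did not overlap between the tissues and were not called, at 1.58 and 1.56 (limma, adjusted p = 0.0966 and 0.0908). Of 14 T and NK cell markers 2 were higher in liver, SCYC1 at 2.84 and GZMA at 2.68, of 9 heterophil markers 1, CATHL2 at 3.37, and of 6 B cell markers 0, and 0 of these lists' members were higher in breast muscle. The liver shares were 14.3% for T and NK cells, 11.1% for heterophils and 0% for B cells, against 12% of all genes tested. Of 7 smooth muscle markers 2 were higher in liver and 1 in breast muscle, and of 3 nerve and Schwann cell markers 1 was higher in breast muscle. For smooth muscle these are 28.6% and 14.3%, and for nerve 33.3% in breast muscle, against 12% and 11.1% of all genes tested. The part these cells have in the differences of other lists was not tested.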

How the data were processed

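Libraries were TruSeq preparations from Trizol-extracted total RNA, per the labels' protocols. The submitters' processing notes list Cufflinks 2.1.1, Cuffdiff 2.1.1, Bowtie 1.0.0 and TopHat2 2.0.9, with no roles given, and the build galGal4. The authors deposited, per the file headers, FPKM per gene and per transcript, with coverage, a signal of mean read depth, and transcript length beside the transcripts. Each library lists 17108 genes and 17942 transcripts, and 0 columns of other samples were present. Read counts were not used here, so depth in reads is unknown.

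FPKM was divided by a median-ratio scale factor (0.867 to 1.22) over the 10 libraries, and genes with a mean of at least 1 were kept. Genes with a failed estimate in any of the 10 libraries were left out, among them ALB, GAPDH and ACTN1. The log2(scaled FPKM + 1) values were tested in limma 3.58.1 (R 4.3.3) with a mean-variance trend and treat against a 2-fold difference, with Benjamini-Hochberg adjustment. The procedure was tested on simulated data, in which both tissues had breast muscle means and spread apart from a small set of changed genes. The simulation held neither the larger spread among liver libraries nor muscle RNA in a liver library. It therefore gives no error rate for these data. Deficient-diet libraries were fitted in the same way.

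Transcript shares were tested in limma for genes with at least 2 transcripts and a summed FPKM of at least 5 in each library, at a difference of at least 0.2. Library values were compared with exact permutation tests over 252 labelings, in which the smallest possible p is 0.00794.

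Gene lists held 1457 entries in 49 lists, of which 1205 were found, 23 by another symbol and 38 by a RefSeq synonym; entries not found are not analysed here. The members, lists and tests were chosen with earlier results of these data known. Named genes were the 10 largest differences in each direction without overlap and the 10 most abundant of each tissue, both among genes with a symbol. Added to these were up to 4 members of each list by size of difference, members against their list, tested pairs and failed members. Other genes in the text were chosen after their values were seen, among them members at the low end of a list. Alternatives covered scaling, pseudocount, filters, variance model, call rule, short features, the libraries in the fit and leaving out each library. Some genes and pairs are not reported here.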

Additional observations from a re-analysis of the deposited data

Results flagged for a closer look

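In 219 groups of 5 library values, 28 held a library that stood apart from the other 4 by Dixon's criterion at the 95% level (critical value 0.71). Chance flags about 5% of independent groups, but these genes were chosen with values known, and the lists share genes with them. The 28 groups therefore cannot be set against that rate. They were 14 gene values, 11 list medians and 3 values of whole libraries.

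Liver control 1 stood apart in 12 groups, always on the high side. It read 303 for ACTA1, 110 for MYL1, 70.5 for TNNI2, 49.7 for TNNT3 and 28.5 for TNNC2, in scaled FPKM. It also read 18.2 for AK1, 4.82 for PFKM and 17.5 for the EEF1A gene of chromosome 20. Its median log2 value was 3.40 for myocyte markers, 1.38 for the sarcomere thin filament and Z disc, 0.36 for the sarcomere thick filament and 2.77 for fibroblast and matrix markers.

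Liver control 5 stood apart in 5 groups. It had the lowest FABP1, at 3279, and the highest FABP3, at 10.7, and ALDOC, at 32.3. A short gene model carrying the symbol HPS5 (galGal4 chromosome 5, positions 11869290 to 11871121, 552 nt) read 16808 there, against 2205, 586, 699 and 469 in liver control 1 to 4. The symbol is on 2 gene models, and the RefSeq gene next to HPS5 is SAA. The median log2 value of purine synthesis and urate formation in liver was highest in liver control 5, at 4.51. Liver control 2 had the highest SLC25A4, at 96.5.

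Liver control 4 had 63.2% of its summed FPKM in its 10 most abundant features and 63.1% in mitochondrially encoded features. Breast control 3 had 37.0% in its 10 most abundant features. Breast control 5 had the highest MYH1, at 376. Breast control 2 had the lowest breast medians of fatty acid synthesis at 2.99, of glycolysis and glycogen breakdown at 6.01 and of the TCA cycle at 5.04 on the log2 scale. Breast control 4 had the highest medians of cholesterol synthesis at 3.14 and of nerve and Schwann cell markers at 3.91, and the lowest of splicing factors at 4.61.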

How the results depend on the processing

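The counts of 1301 genes higher in liver and 1206 higher in breast muscle stayed within 1.5 times under the scaling, pseudocount, filter and variance alternatives, with the lowest at 1050 and 846 for a mean of at least 5. The call rule moved them: 3876 and 3733 genes passed a plain limma test, and 611 and 508 passed limma's treat test at 4-fold. Leaving out 1 library at a time gave 1232 to 1299 and 1148 to 1194 genes. FPKM without scaling put the median of all genes at -0.16 against 0.02 and gave 1118 and 1409 genes. The list median of mitochondrially encoded genes then became -0.14 and that of the TCA cycle -0.0452, and quantile normalization gave -0.16 for the TCA cycle; the cause was not tested. Over the alternatives 6687 values of 246 named genes kept their side of the threshold, 109 lost the call, 57 gained it and 0 reversed.

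The count of 30 transcripts became 50 with a summed FPKM of at least 1, 8 with at least 20 and 85 with a difference of at least 0.1, and 30 to 34 without 1 library. The liver minus breast difference in genes detected, counted on unscaled FPKM, was -298 at an FPKM of at least 5 (exact permutation p = 0.0952) and -407 to -285 without 1 library. The difference in the share of the 10 most abundant features was 1.50 percentage points, and it did not pass the exact permutation test over all 10 libraries. The difference was -6.97 to 4.08 without 1 library, with -6.97 without liver control 4 (exact permutation p = 0.0159, not adjusted). Liver control 4 was the outlier of liver for this share, so that p-value followed from leaving out a library known to stand apart. Leaving out features under 200 nt, that share was 18.1% to 19.9% in liver and 23.6% to 32.8% in breast muscle. The ranges did not overlap, and no test was run on them. The mitochondrial share differed by 10.6 points (exact permutation p = 0.278, adjusted p = 0.417), and by 1.48 to 13.7 points without 1 library.

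The labels do not say whether replicate numbers pair the libraries, and the main fit treated them as unpaired. Deviations of same-numbered liver and breast libraries correlated at 0.056 to 0.12, positive in 5 of 5 but over 0.1 in 2 of 5, and 4 of 5 liver libraries correlated best with their own number, a hint from the data and not the design. A replicate block gave 1296 and 1195 genes, with 1267 and 1168 of the calls kept, and 27 transcripts. With the block HBAA and HBB passed (limma, adjusted p = 0.00481 and 0.00301), and FST and C1QB did not (adjusted p = 0.0827 and 0.0604). Depth in reads is unknown, so values near 0 have no interval.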
